A study of Mus musculus with 6 samples.

Results

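Bc1 is a short noncoding RNA of rodent neurons, and it was the gene with the most counts in every library of this series. It was chosen by its counts in these same files, as 1 gene matched by its GENCODE M21 symbol among 54532 gene identifiers, and its rank and its share of the counts are therefore given as a description. Whole brains of C57BL/6J mice were profiled by RNA sequencing on postnatal day 14, with 1 library per brain. The 3 control brains were labelled Mphosph8fl/+ Nestin-Cre+ and the 3 mutant brains Mphosph8fl/fl Nestin-Cre+, so both groups carried the recombinase and at least 1 floxed allele. In the paper the controls are named only as carriers of Nestin-Cre, and the labels were followed here. By the labels the contrast is therefore of homozygous against heterozygous deletion, not against an intact gene. Nestin-Cre acts in neural progenitors and the cells they give rise to, so cells of other origin in a whole brain keep the gene.

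Bc1 is transcribed by RNA polymerase III and arose by retroposition of an alanine transfer RNA gene. It is not polyadenylated in the way of a messenger RNA, but carries an A-rich stretch within its sequence. In neurons it is transported into dendrites as a ribonucleoprotein particle, where it represses the initiation of translation, and it is known as the source gene of the ID family of short interspersed elements. Mphosph8 encodes MPP8, a chromatin reader within the HUSH complex that silences intronless and retroposed sequences. The study asked which transcripts change when Mphosph8 is deleted in the nervous system. Here the level of this retroposed RNA was compared between the genotypes, together with what so abundant an RNA does to the scale of all other genes.

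The gene lies on chromosome 7, from 144914470 to 144914637 on the plus strand of GRCm38 (ENSMUSG00000115783). GENCODE M21 annotates it as a lincRNA of 1 exon and 168 bases, and 0 genes overlap it. RefSeq ends the same RNA 14 bases earlier, at 144914623. The nearest gene on the right is LTO1, 463 bases away, and the nearest on the left is Gm39119, 4385 bases away. These neighbours were read at low levels, LTO1 with between 173 and 293 counts per library and Gm39119 with 1 count over all 6. Whether its parts bore on how it was captured was not tested. The whole transcript is shown, with the A-rich stretch in capitals.
Bc1: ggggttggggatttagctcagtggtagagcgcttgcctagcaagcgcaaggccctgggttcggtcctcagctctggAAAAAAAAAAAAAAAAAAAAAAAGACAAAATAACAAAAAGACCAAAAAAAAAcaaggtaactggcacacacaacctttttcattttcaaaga
The A-rich stretch runs from base 77 to base 128 of the transcript, and 86.5% of its 52 bases are A. It opens with a run of 23 A. Of 55450 genes with an annotated transcript, 0.898% hold a run of A at least as long. The 76 bases before it, which derive from the transfer RNA, are 61.8% G and C. An A box, part of the internal promoter of transfer RNA genes, was searched on both strands by its consensus. It was found once, on the plus strand, at bases 14 to 24 as TAGCTCAGTGG. Of the first 168 bases of 135207 annotated transcripts, 5.55% hold the consensus on either strand. The letters GNTCNANNC, searched for the B box in the same way, were not in the transcript and are in 21.7% of the same windows. Only exact matches were sought, so a B box that departs from these letters would be missed.

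Part of Bc1 is repeated elsewhere, so the uniqueness of its sequence was examined next. Reads were 50 bases long. Of the 119 words of 50 bases in Bc1, 37 also occur in annotated transcripts of other genes on either strand, all of them starting between base 1 and base 37. The other 82, all of which reach into or past the A-rich stretch, do not. The words that are shared lie in transcripts of Lrrc17 and Tatdn1 on the same strand and of Akap5, Elp6 and Gm26549 on the opposite strand. These 5 genes held between 58 and 3858 counts each over all 6 libraries, against 2445373 for Bc1. In shorter words of 20 bases the picture was broader. All 57 such words that end before the A-rich stretch occur in other genes on the same strand, 24 genes in all, whereas none of the 21 words that start after it do. The start of the A-rich stretch is shared most widely, with up to 753 other genes holding the same word on the same strand. Only annotated transcripts were searched, so copies of ID elements between genes are not counted.

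**Figure D1:**
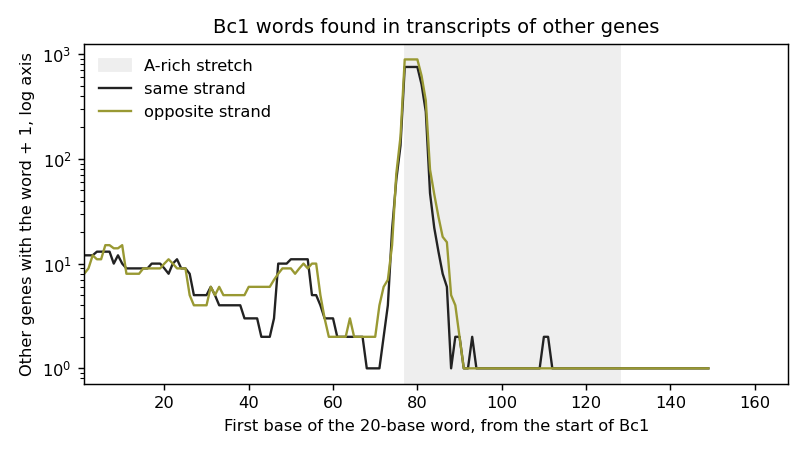
Number of other genes, plus 1, whose annotated transcripts hold each 20-base word of Bc1 (log axis), by the word's first base from the start of Bc1, on the same strand (black) and on the opposite strand (olive), with the A-rich stretch shaded. Words that start at bases 1 to 57 are shared with at most 12 genes on the same strand, those at base 77 with 753, and those after the A-rich stretch with none.

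The annotated pseudogene of Bc1, Bc1-ps1 (ENSMUSG00000109440, chromosome 7, 93660238 to 93660555, minus strand, GRCm38), was compared with it as well. Over their aligned part Bc1 and Bc1-ps1 share 92 identical bases, with 7 mismatches and 2 gapped bases. Both are printed over that part, with the bases that differ in capitals.
Bc1, bases 1 to 99: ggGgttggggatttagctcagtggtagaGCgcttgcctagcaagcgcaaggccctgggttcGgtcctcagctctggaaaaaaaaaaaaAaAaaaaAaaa
Bc1-ps1, bases 119 to 219: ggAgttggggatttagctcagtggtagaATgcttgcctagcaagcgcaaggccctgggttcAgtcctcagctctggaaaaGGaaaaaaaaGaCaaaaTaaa
No 50-base word was common to the pair. Bc1-ps1 had 0 counts in each of the 6 libraries, which allows up to 3 counts per library, while Bc1 had between 286945 and 548190.

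The libraries held between 12956880 and 15223424 counts. As a check of the labels, Mphosph8 had 58.4 ± 11.3 counts per 1e6 (CPM) in controls and 28.9 ± 3.63 in mutants (SD, n = 3), and its log2 fold change was -1.02 ± 0.12 (SE, edgeR quasi-likelihood test, adjusted p 0.000157). The labels give no sex, and the methods describe littermates matched by sex. Control replicate 3 stood apart, with 1338 counts of the Y-linked gene Ddx3y and 27 of Xist, while the other 5 libraries had 0 counts of Ddx3y and at least 11130 of Xist. All members of the neuron, astrocyte, oligodendrocyte and microglia marker lists were detected, as the label whole brain implies.

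Bc1 took 3.60% of the counts in control replicate 1, 2.62% in control replicate 2 and 1.97% in control replicate 3. In the mutant brains it took 4.22%, 2.52% and 2.72% in replicates 1, 2 and 3. The lowest value was in a control and the highest in a mutant, but the groups overlapped, with control replicate 1 above mutant replicates 2 and 3. At these counts the sampling error is small. The 95% exact binomial interval of the lowest share was 1.96% to 1.98% and that of the highest 4.21% to 4.23%, which cover counting error only, since reads without molecular identifiers are not independent molecules. The spread between brains of a group, at 30.02% of the mean in controls and 29.4% in mutants, was far above the counting error of at most 0.187% of a count.

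**Figure D2:**
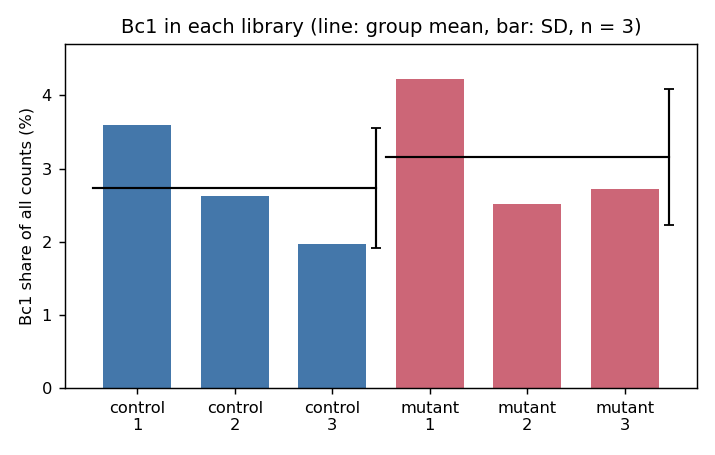
Share of all counts taken by Bc1 (percent) in each control (blue bars) and mutant (red bars) library, with a line at each group mean and a bar for the SD (n = 3). The controls range from 1.97% to 3.60% and the mutants from 2.52% to 4.22%, so that the groups overlap.

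To see whether Bc1 differed between homozygous and, by the labels, heterozygous deletion of Mphosph8, the shares were compared over brains. The mean share was 2.73 ± 0.820% in controls and 3.15 ± 0.928% in mutants (SD, n = 3), a difference of 0.42 percentage points that was smaller than the spread within either group (exact two-sided permutation p 0.6, where 3 against 3 cannot give less than 0.1). In the fit across 16731 genes, Bc1 had 27386 ± 8589 CPM in controls and 31844 ± 10319 CPM in mutants after TMM scaling, a log2 fold change of 0.22 ± 0.21 (SE, edgeR adjusted p 0.945, unadjusted p 0.324). The 95% interval of the log2 fold change reached from -0.23 to 0.67, or from 0.85 to 1.59 times the control level. Changes within that interval were not excluded by these 6 brains. The SE rests on a variance moderated across genes and differed between fits. It was 0.11 with no filter, 0.28 in the robust fit and 0.35 in DESeq2, so the interval is no firm limit on larger changes. By the same test 0.628% of all genes were called at an adjusted p under 0.05, 0.532% higher and 0.0956% lower in mutants, and 0.359% with a fold over 2 as well. Bc1 was not among them, and it was number 5742 of the 16731 genes in order of p.

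The direction of the difference rested on single brains. Without mutant replicate 1, the library with the highest share, the log2 fold change was -0.08 (edgeR adjusted p 0.938). Without control replicate 3, which had the lowest share and was the library with Y-linked counts, it was 0.02 (edgeR adjusted p 0.998). The largest value came without control replicate 1, at 0.48 with an adjusted p of 0.764 and an unadjusted p of 0.0307. In whole brains, a different number of cells that make Bc1 and a different amount of Bc1 per cell cannot be told apart.

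Bc1 was then set beside the other abundant RNAs. The gene next in order of summed counts was Mbp, which encodes myelin basic protein, with 903618 counts over the 6 libraries. Within a library Bc1 had between 1.83 and 4.34 times the counts of the next gene, which was Mbp in 5 libraries and the maternally expressed RNA Meg3 in mutant replicate 3. Of other genes among the 10 with the most counts, Slc1a2 encodes a glutamate transporter of astrocytes, Apoe a lipid carrier, Sparcl1 a secreted matrix protein and Cpe a peptide-processing enzyme. Malat1 is a nuclear noncoding RNA. These 5 genes each took between 0.283% and 0.548% of a library. The highest share of Bc1 was 2.14 times its lowest, whereas for Mbp, Meg3 and these 5 genes this ratio ran from 1.07 for Sparcl1 to 1.86 for Malat1.

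**Figure D3:**
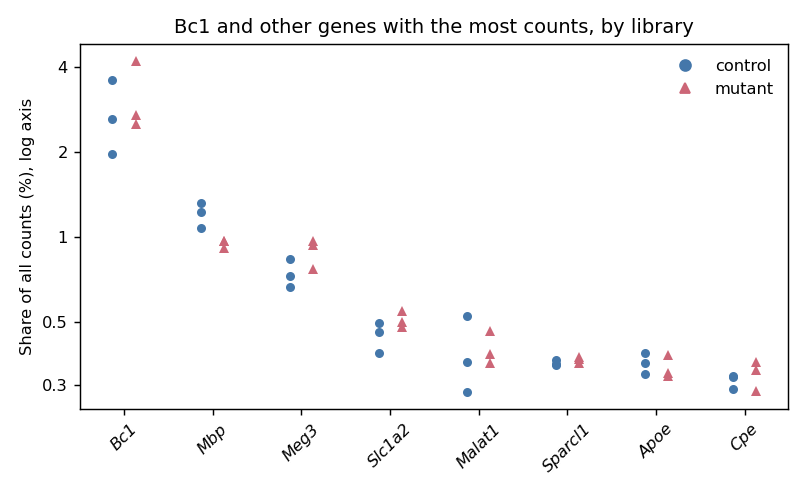
Share of all counts (percent, log axis) of Bc1 and 7 other genes among the 10 with the most counts, with controls as blue circles and mutants as red triangles, 1 point per library. Bc1 lies above each of the other genes shown in every library and its points are spread most widely, from 1.97% to 4.22%.

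The variation of Bc1 between brains of 1 group was large for its abundance. Its SD within groups was 0.45 on the log2 CPM scale, against a median of 0.12 for the other genes among the 100 most abundant. In that set it was exceeded only by Xist, at 3.69, whose counts were near 0 in control replicate 3. In the edgeR fit the biological coefficient of variation of Bc1 was 17.5%, against 10.004% on the trend for genes of its abundance. That estimate is drawn towards the trend. The spread of the Bc1 share within groups was 30.02% of the mean in controls and 29.4% in mutants. Between replicates of a group, the chi-square statistic over all genes drew between 1.49% and 30.6% of its value from Bc1 alone. That share was 30.6% for control replicates 1 and 3 and 27.2% for mutant replicates 1 and 2.

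On a scale per kilobase of exon the distance to other genes was greater still. With a length of 168 bases, Bc1 made up 47.7%, 40.7% and 34.2% of the length-scaled total in control replicates 1, 2 and 3, and 53.0%, 39.6% and 41.7% in mutant replicates 1, 2 and 3. The next gene on that scale was Apoe in 5 libraries and Cst3, which encodes the protease inhibitor cystatin C, in mutant replicate 3. Bc1 was between 76.7 and 139.8 times above it per kilobase. In length-scaled transcript units (TPM), a scale on which all genes of a library sum to a fixed total, Bc1 alone would therefore take from 34.2% to 53.0% of that total. Length here is that of all annotated exons of a gene merged, 8469 bases for Mbp and 2138 for Apoe, not that of the transcripts expressed. These shares and the TPM results below depend on that choice.

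Its effect on scaling followed from these shares. If every library is scaled by its total count, the presence of Bc1 lowers all other genes by 0.03 to 0.06 on the log2 scale, and the gap between the least affected library, control replicate 3, and the most affected, mutant replicate 1, is 0.03. On the TPM scale all other genes are lowered by 0.60 in control replicate 3 and by 1.09 in mutant replicate 1. That gap of 0.48 on the log2 scale means that a gene with an equal share of the remaining RNA would appear 1.40 times higher in control replicate 3. Averaged over groups, the TPM values of all other genes are lowered by 0.76 in controls and by 0.86 in mutants, a difference of 0.10 that lay within the spread between libraries (two-sided exact permutation p 0.6).

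**Figure D4:**
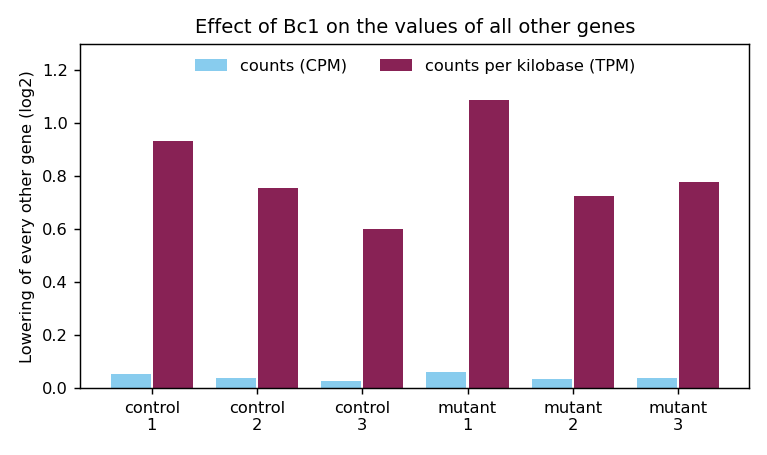
Lowering of every other gene (log2) that results from the presence of Bc1 in each library, for scaling by total counts (light blue) and by counts per kilobase (purple). On the count scale the bars stay between 0.03 and 0.06, and on the TPM scale they reach from 0.60 in control replicate 3 to 1.09 in mutant replicate 1.

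The comparison of genotypes across all genes was therefore repeated with and without Bc1. With TMM scaling, which compares trimmed ratios of genes and so gives little weight to any single RNA, 105 genes were called, 89 higher and 16 lower in mutant brains. With Bc1 left out of the library sizes and of the TMM step, 106 were called, of which 104 were among the 105. Scaling by library totals called 97 genes with Bc1 in the total and 98 without it. On the TPM scale, chosen after the data were seen, 54 genes were called with Bc1 in the total, 51 higher and 3 lower, and 96 without it, 83 higher and 13 lower. The median log2 fold change of all tested genes was -0.09 on the TPM scale with Bc1 and 0.0074 without it, against -0.0073 with TMM.

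The TMM factors themselves moved with Bc1. They were 0.990, 0.998 and 1.02 in control replicates 1, 2 and 3 and 0.967, 1.02 and 1.01 in mutant replicates 1, 2 and 3, so the library with the most Bc1 had the lowest factor and that with the least the highest. Across the 6 libraries the Bc1 share and the TMM factor had a Pearson r of -0.95 (exact permutation p 0.00417, adjusted 0.025) and a Spearman rho of -0.94 (exact permutation p 0.0167, adjusted 0.1). The library total that a factor multiplies includes Bc1, so part of this relation is built in and these p are only a description. The r was -0.68 over the 4 libraries left without mutant replicate 1 and control replicate 1, so the relation rested in part on these. With Bc1 left out of the TMM step, a check added after the data were seen, r was -0.87 (exact permutation p 0.0278, adjusted 0.0833) and rho -0.77 (exact permutation p 0.103, adjusted 0.308), with r at -0.44 over the same 4 libraries. The factors then ran from 0.977 to 1.01. Among 6 relations computed, those of the Bc1 share with the total count (r -0.16, rho -0.26), the number of genes with a count (r -0.67, rho -0.55), the share of neuron markers (r 0.44, rho 0.37) and the share of other RNAs without a poly(A) tail (r -0.01, rho 0.09) had exact permutation p between 0.183 and 0.981 for r and between 0.272 and 0.919 for rho. Their adjusted p ran from 0.367 to 0.981 for r and from 0.544 to 0.919 for rho. The signs of r for neuron markers, for the number of genes and for the RNAs without a tail turned without the same 2 libraries, to -0.67, 0.12 and 0.91, and r for the total count was -0.80.

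Since the libraries were made from polyadenylated RNA, other classes of RNA that as a rule lack a poly(A) tail were examined beside Bc1. Small nuclear, nucleolar and Cajal body RNAs, histone genes and the listed RNA polymerase III transcripts together took between 0.0212% and 0.0269% of a library, so Bc1 had between 93.0 and 180 times their summed counts. Histone genes, taken by symbol, gave 1043 to 1735 counts per library, of 3043 to 3689 in these classes together. Any histone transcripts with a poly(A) tail were not set apart, here or in the relation with the Bc1 share above. Of 14 symbols of RNA polymerase III transcripts other than Bc1, which matched 16 identifiers, 9 identifiers had 0 counts in all libraries, among them those of Rmrp, the RNA of a ribonuclease, and of Rn7s1, a signal recognition particle RNA. The others were Rny3 and Rny1, RNAs of the Ro particle, with 562 and 509 counts over the 6 libraries, Rn7sk, which holds a transcription elongation factor inactive, with 560, Rn7s6 with 16, the vault RNA Vaultrc5 with 5, Rpph1 with 3 and Rn7s2 with 1. In their annotated transcripts the longest run of A was at most 5 bases, against 23 in Bc1 and 8 in Bc1-ps1. Whether such runs bore on capture was not tested. Rmrp and Rprl1 each match more than 1 identifier. How reads with several alignments were treated is not given, so 0 counts need not mean absence from a library.

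From library to library these RNAs varied in different ways. Rn7sk had 58, 209 and 65 counts in control replicates 1, 2 and 3 and 52, 68 and 108 in the mutants, so its highest value was in control replicate 2, and all 16 counts of Rn7s6 were in that library as well. Rny1 had 104, 101 and 73 counts in the controls and 103, 61 and 67 in the mutants, and per effective library size it was highest in mutant replicate 1, as Bc1 was, at 8.24 CPM. Rny3, Rny1 and Rn7sk passed the filter and had log2 fold changes of 0.00, -0.13 and -0.44, none past the threshold (edgeR adjusted p 0.9996, 0.978 and 0.931). None of the 3 was called by DESeq2 or limma-voom either, and 0 had an unadjusted p under 0.05. Among all genes, edgeR called 0.628%, and 6.51% had such a p.

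The genes whose level was most like that of Bc1 over the 6 libraries were sought among 10742 genes with a mean of at least 10 CPM, by Pearson's r of log2 CPM, as a description. The highest were Ube2r2, a ubiquitin-conjugating enzyme, at 0.99, Ppp2r2b, a regulatory subunit of protein phosphatase PP2A, at 0.99, the secreted protein gene C1qtnf4 at 0.99, the corepressor gene Ctbp1 at 0.99 and the glycolytic enzyme gene Pfkm at 0.99. Their levels moved far less than that of Bc1. Ube2r2 had 125, 115 and 102 CPM in control replicates 1, 2 and 3 and 133, 112 and 113 CPM in the mutants, so its highest library was 1.31 times its lowest. For the other 4 genes this ratio was between 1.19 and 1.32. The lowest values were -0.99 for Clk2, a kinase of splicing factors, Hars2, a mitochondrial histidyl transfer RNA synthetase, Usp19, a deubiquitinase, Xpo1, the nuclear export receptor, and Stam, an adaptor of endosomal sorting. Clk2 had 40.2, 47.2 and 54.5 CPM in the controls and 38.1, 49.6 and 48.1 CPM in the mutants, the reverse order of Bc1 among the controls. None of these genes was called between genotypes, with edgeR adjusted p from 0.945 to 0.988. They were chosen for their likeness to Bc1, whose groups overlapped, so this follows in part from the choice. With 6 points that share library, depth and scaling, many genes reach such values, and 225 had an r over 0.9 and 286 an r under -0.9.

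What these genes share was described by length and base composition, properties that the choice did not use, and chosen after their values were seen. The 100 genes with the highest r had a median exonic length of 3336 bases and the 100 with the lowest r 7740 bases, against 5021 bases for all 10742. In quintiles of exonic length the median r fell step by step from 0.27 in the shortest to -0.26 in the longest. In quintiles of GC content of the longest transcript it rose from -0.27 at the lowest GC to 0.32 at the highest. Bc1 itself, at 168 bases, is shorter than any gene of the shortest quintile, which begins at 243 bases, while its GC content of 40.5% lies in the lowest quintile, from 29.3% to 43.8%. Among the 100 highest, 7 genes had symbols beginning with Rpl or Rps and a digit, and 1 did among the 100 lowest. Such symbols, most familiar from ribosomal proteins but not limited to them, make up 0.614% of the 10742. A positive r was found for 67.2% of genes in the shortest quintile and 34.9% in the longest. Over these 6 libraries r with Bc1 thus shifted with length and GC, which were not separated from each other or from level. The part of this in the Bc1 level was not tested.

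**Figure D5:**
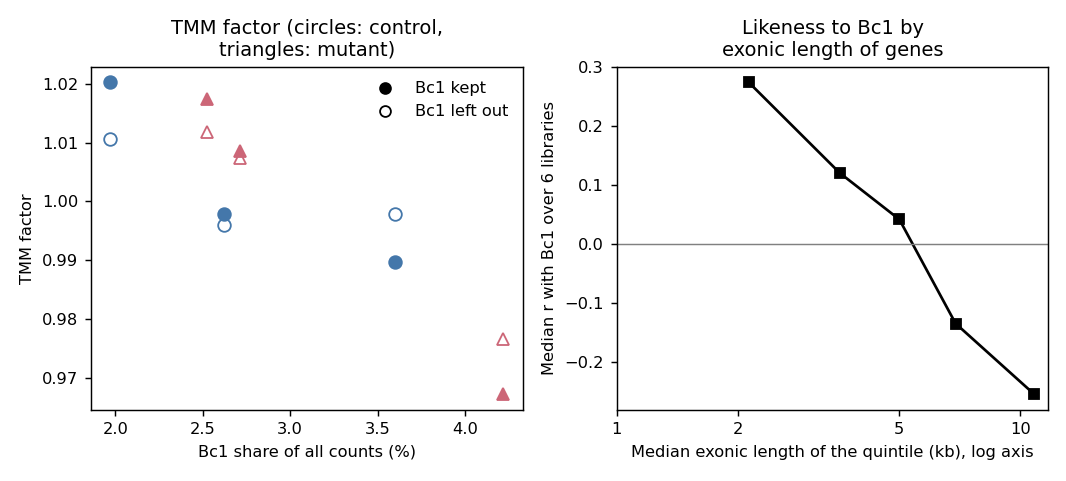
Left, TMM factor against the Bc1 share of counts (percent), with controls as circles and mutants as triangles, filled where Bc1 was kept in the TMM step and open where it was left out. Right, median Pearson r with Bc1 over the 6 libraries for quintiles of exonic length (kb, log axis), which falls from 0.27 to -0.26.

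The proteins that act with Bc1 were examined as a group. The list held FMRP and its relatives, which take part in translational control at synapses, CYFIP proteins that bind them, poly(A)-binding protein, the initiation factors eIF4A and eIF4B through which Bc1 represses translation, and RNA-binding proteins of its particle. All 15 genes were tested and 0 were called by edgeR, DESeq2 or limma-voom, where 0.628% of all genes were called by edgeR. At an unadjusted p under 0.05 there were 3 of 15, against 6.51% of all genes. These were Purb, Pabpc1 and Ybx1. Purb, which encodes a single-strand binding protein, had 775 ± 5.67 CPM in controls and 942 ± 111 CPM in mutants (SD, n = 3), and differed by 0.28 ± 0.10 on the log2 scale (SE, edgeR adjusted p 0.444). It was the member of the list whose groups did not overlap, which holds for 11.6% of all genes. Pabpc1, which encodes poly(A)-binding protein, went from 246 ± 5.27 to 295 ± 53.1 CPM, by 0.26 ± 0.10 (edgeR adjusted p 0.614), and its groups overlapped.

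The RNA polymerase III machinery was tested in the same way. All 30 genes, subunits of the polymerase, of its initiation factors and of the SNAPc complex and the repressor Maf1, were tested and 0 were called by any of the 3 tools. By edgeR 0.628% of all genes were called, and 6.51% had an unadjusted p under 0.05. Of the 30 listed, 15 had a positive and 15 a negative log2 fold change, with a median of -0.00080, and 1 had an unadjusted p under 0.05. This was Polr1d, a subunit shared with RNA polymerase I, at -0.24 ± 0.11 (SE, edgeR adjusted p 0.753). Gtf3c2, a subunit of the factor that binds the B box, was at 0.17 ± 0.09 (edgeR adjusted p 0.834).

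Other messengers that neurons carry into dendrites were compared too. Of 16 such genes, 12 had a positive log2 fold change, with a median of 0.17, against 7967 of all 16731 genes and a median of -0.0073. None was called by edgeR or limma-voom, 1 was called by DESeq2, and 3 had an unadjusted p under 0.05, against 0.628% called by edgeR and 6.51% at that unadjusted p over all genes. Kif5c, a kinesin that carries RNA particles, went from 1250.1 ± 51.6 to 1525 ± 114 CPM (SD, n = 3), by 0.29 ± 0.10 (SE, edgeR adjusted p 0.397), and all its mutant values lay above all control values. Groups did not overlap, in either direction, for 5 of the 16 genes, Kif5c among them, and for 11.6% of all genes. Shank3, a scaffold of the postsynaptic density, was at 0.21 ± 0.09 (edgeR adjusted p 0.664) with groups that overlapped. The third, Arc, an activity-regulated gene of synapses, was at -0.41 ± 0.19 (edgeR adjusted p 0.760), in the other direction, and its groups overlapped. Without control replicate 3, 1 gene of this list was called.

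Among 11 other abundant noncoding RNAs of the brain that matched a symbol, 0 were called by the 3 tools and 2 had an unadjusted p under 0.05. For this list and the next, the shares over all genes were 0.628% called by edgeR and 6.51% at such a p. Snhg14, the host transcript of small nucleolar RNAs in the Prader-Willi region, was at 0.22 ± 0.09 (SE, edgeR adjusted p 0.675). Meg3 went from 7419 ± 751 to 8938 ± 826 CPM (SD, n = 3), by 0.27 ± 0.12 (edgeR adjusted p 0.722), and its groups overlapped. Of 14 genes for poly(A) tail binding and 3′ end processing, 0 were called by the 3 tools and 2 had an unadjusted p under 0.05, Cstf3, a cleavage factor subunit, at -0.26 ± 0.09 (edgeR adjusted p 0.454) and Pabpc1.

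Bc1 is known from neurons, and markers of the cell types of the brain are given beside it, as summed CPM over all counts but those of Bc1. The 15 neuron markers summed to between 7219 and 7748 CPM in controls and between 6888 and 7395 CPM in mutants, with 0 called by edgeR, DESeq2 or limma-voom and 3 at an unadjusted p under 0.05. Nefm and Nefh, neurofilament subunits, had the smallest p, at -0.47 ± 0.13 and -0.41 ± 0.12 (SE, edgeR adjusted p 0.186 and 0.207). The third was Gad2, which makes the transmitter GABA, in the other direction at 0.21 ± 0.08 (edgeR adjusted p 0.573), and over the list 4 log2 fold changes were positive and 11 negative. Without mutant replicate 1, 2 neuron markers were called. The 10 oligodendrocyte markers all had negative log2 fold changes and summed to 22518 to 26543 CPM in controls and 17810 to 20239 CPM in mutants, with a median log2 fold change of -0.43. Of these, 2 were called, the myelin genes Mog at -0.49 ± 0.10 (edgeR adjusted p 0.0351) and Cldn11 at -0.49 ± 0.11 (0.0496). Leaving out single libraries gave 0 calls in 5 fits and 5 calls without mutant replicate 1. DESeq2 called 5, limma-voom 2, RLE scaling 1 and library totals 4. An unadjusted p under 0.05 was found for 9 of the 10, and groups that did not overlap for 8. Over all genes 0.628% were called, 6.51% had such a p and 11.6% did not overlap.

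Markers of the remaining cell types showed 0 calls by the 3 tools. The shares over all genes were 0.628% called by edgeR and 6.51% at an unadjusted p under 0.05. Summed over 10 genes, astrocyte markers ran from 9696 to 10983 CPM in controls and from 10777 to 11365 CPM in mutants, with 1 gene at an unadjusted p under 0.05. Aldh1l1, a folate enzyme of astrocytes, was at 0.26 ± 0.09 (SE, edgeR adjusted p 0.465), and the transcription factor Sox9 at 0.16 ± 0.08 (edgeR adjusted p 0.801). Gfap, an intermediate filament of astrocytes, was at -0.24 ± 0.12 (edgeR adjusted p 0.804), and 7 of the 10 log2 fold changes were positive and 3 negative. The 10 microglia markers ran from 796 to 882 CPM and from 831 to 946 CPM, with 0 at an unadjusted p under 0.05. Csf1r, a growth factor receptor, was at 0.15 ± 0.09 (edgeR adjusted p 0.871), and the purine receptor P2ry12 at 0.14 ± 0.09 (edgeR adjusted p 0.897). The 8 endothelial markers ran from 559 to 578 CPM and from 536 to 589 CPM, with 1 at an unadjusted p under 0.05, the transporter gene Slco1a4 at 0.28 ± 0.09 (edgeR adjusted p 0.370), while the endothelial cadherin Cdh5 was at -0.14 ± 0.09 (edgeR adjusted p 0.897). The 6 blood cell genes ran from 343 to 424 CPM and from 342 to 420 CPM, with 0 at an unadjusted p under 0.05, and Alas2, a heme enzyme of red cell precursors, was at 0.25 ± 0.15 (edgeR adjusted p 0.890) and the globin Hba-a1 at 0.17 ± 0.13 (edgeR adjusted p 0.912). The part of any of these cell types in the Bc1 level was not tested.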

How the data were processed

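Per the labels and the study's methods, polyA-selected libraries were sequenced as single reads of 50 bases, trimmed with Trim Galore 0.5.0, freed of ribosomal, mitochondrial, phiX and adapter reads with Bowtie2 2.3.4.1, aligned with STAR to GRCm38 and counted per gene with featureCounts. The files the authors deposited give unnormalised counts, 1 file per brain, between 12956880 and 15223424 per library. How strand and reads with several alignments were treated is not given in the sources used here. Both bear on Bc1, whose first bases are repeated elsewhere. Reads that were removed as abundant sequence were not analysed here.

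Symbols, exonic lengths and transcript sequences came from GENCODE M21, which matched 54495 of 54532 identifiers. Genotypes were compared with edgeR 4.0.16 (filterByExpr, TMM, quasi-likelihood F test, R 4.3.3) on all 6 libraries, with Benjamini-Hochberg adjustment over 16731 genes and a call at an adjusted p under 0.05. SEs were derived from the F statistic. Shares were compared by exact permutation. The study describes the brains as those of littermates, and no label gives the litter of a brain, so litter was not a term of any fit. Gad2, Gfap and Arc were also named after their values were seen. The A-rich stretch is the highest-scoring segment at 1 for A and -2 for other bases. Log2 CPM used a prior count of 2. Named genes were Bc1, Mphosph8, the 10 genes with the most counts (2 of them are not reported here), the 5 highest and 5 lowest in r with Bc1, its neighbours, the RNA polymerase III transcripts with counts, and per list the called members, or the 2 with the smallest p where none was called. Bc1-ps1, Cst3, Xist, Ddx3y, Ybx1, Rmrp, Rn7s1 and the genes sharing 50-base words were named after their values were seen. The gene and the lists were chosen with earlier results of these data known. The alternatives were RLE and upper-quartile scaling, library totals, removal of Bc1, DESeq2 1.42.0, limma-voom (limma 3.58.1), other filters, a robust fit, a replicate block and each library left out. The steps were tested on simulated data.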

Additional observations from a re-analysis of the deposited data

How the results depend on the processing

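Bc1 was not called under any of 19 alternatives, with adjusted p from 0.764 to 0.9999, and its log2 fold change reversed, to -0.080, without mutant replicate 1. The fits without 1 library gave -0.080 to 0.478, and for the difference in share -0.113 to 0.855 percentage points, which also reversed, to -0.113, without mutant replicate 1. Other denominators of the share kept its direction. Without a filter on low counts the unadjusted p of Bc1 was 0.0404 (adjusted 0.839). Genes called went from 105 to 242 with no filter, 60 with a fold over 2 and 54 on the TPM scale with Bc1, and to 66 to 162 without 1 library: 69, 67 and 66 without control replicates 1, 2 and 3, and 162 and 69 without mutant replicates 1 and 3. The median log2 fold change of all genes was -0.0052 with RLE, 0.0092 with upper quartile, -0.014 with library totals, -0.0041 without Bc1 in TMM, -0.092 on the TPM scale with Bc1 and 0.0074 without it, and -0.0087 to -0.00070 without 1 library. The cause of these moves was not tested. Same-numbered libraries correlated weakly (0.10, -0.05 and 0.08), and 3 of 6 libraries correlated best with their own number. These values cannot show whether the replicate numbers pair littermates. With the replicate block Bc1 was at 0.22 ± 0.14 (SE, edgeR adjusted p 0.870, unadjusted p 0.132), and 124 genes were called. Of the 5 genes most like Bc1, 1 stayed among the top 5 when deviations from group means were used. TPM scaling was chosen after seeing the data. Counting error was at most 0.187% of a Bc1 count, and 3 brains a group limit the precision of the comparison.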
